A study of Mus musculus with 8 samples.

Results

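The baseline difference between α7E260A:G and α7G mice was measured in distal lung cells of animals that breathed room air and received no cigarette smoke (CS). It rests on 4 of the 8 libraries of the series, 1 male and 1 female of each genotype, and on all 22756 genes of their count tables, of which 7190 passed the abundance filter. The comparison was defined by genotype and exposure alone. Genes are then described by whether they differed in the same direction in both same-sex pairs, that is α7E260A:G male against α7G male and α7E260A:G female against α7G female. Mice of both genotypes were adult, more than 90percent C57BL/6, and carried the Chrna7-IRES-tauGFP reporter allele, so the reporter is shared and the comparison does not include a wild-type Chrna7 allele. The α7E260A:G line (Chrna7-E260A-IRES-tauGFP) carries in addition the E260A point mutation, made by homologous recombination in the α7G background. Airway lavage was done before the distal lobes were dissociated, and CD45+ leukocytes were depleted with magnetic beads. The labels do not give the number of mice behind a library or name separate animals, so p-values measure the spread between these libraries, which may be technical. With 1 male and 1 female library per group, sex and every other difference between the libraries of a group cannot be told apart. The matching libraries after 4 months of CS on 5 days per week are used to show whether a baseline difference was also present there. They also entered the abundance filter and the model of 4 groups, which took in all 8 libraries.

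The nicotinic α7 receptor, encoded by Chrna7, is a homomeric ligand-gated ion channel that opens to acetylcholine or nicotine and is unusually permeable to calcium. Glutamate 260 lies at the inner end of the channel-lining helix, and its replacement by alanine limits calcium entry without removing the receptor. In the distal lung, α7 has been described in alveolar macrophages, club cells and type II alveolar (ATII) cells, the cells that clear particles, secrete airway proteins and make surfactant.

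Transcripts of the mutated gene itself were at the limit of detection. Chrna7 (chr7:70243578-70357455, minus strand, NCBIM37/mm9) had 0 reads in both α7G control libraries, 4 in the α7E260A:G male and 0 in the α7E260A:G female. A count of 0 allows up to 0.361, 0.32 and 0.274 RPM, that is reads scaled to the library total, in these 3 libraries (3 reads of the total, counting error only). The genotype labels could therefore not be checked on the transcript, and counts per gene do not show the mutation itself. Codon 260, counted from the start codon, lies in coding exon 7 of 10 at chr7:70250903-70250905. The reference sequence of the coding strand around it, chr7:70250890-70250935, is shown because it is the site at which the genotypes were made to differ, with the glutamate codon in capitals.
Chrna7 codon 260: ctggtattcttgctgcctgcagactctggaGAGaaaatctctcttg
Of the 3 nearest genes with at least 40 control reads on each side of Chrna7, only Snrpn, an imprinted gene of the RNA-splicing machinery, differed in the same direction in both pairs (60 and 95 reads in α7G, 32 and 40 in α7E260A:G). Ube3a, a ubiquitin ligase gene, had 599 and 656 reads in the α7G male and female and 719 and 420 in the α7E260A:G male and female. Mtmr10, a myotubularin-related gene, had 288 and 229 reads against 363 and 145. Of 34 nicotinic and muscarinic receptor genes and modulators, 33 were found and 2 passed the filter. Ly6e and Lypd2, both of the Ly6 family of small surface proteins, were at 1150 and 1113 RPM against 781.9 and 1034, and at 123.5 and 158.9 against 60.31 and 95.21, and neither passed the edgeR test. Chrna1, Chrna3, Chrna4, Chrna6, Chrna9, Chrnb3, Chrnd, Chrng and Chat had 0 reads in all 4 control libraries.

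The control libraries held 8314124 (α7G male), 9367806 (α7G female), 8207358 (α7E260A:G male) and 10944100 (α7E260A:G female) counted reads. Reads of 4 Y-linked genes fitted the sex labels, with at least 2357 in each male and at most 1 in each female control library. Depth was similar, but the libraries differed in how reads fell on short and long coding sequences. On the log2 scale with 0.5 RPM added to each value, which understates the change of low genes, the ratio α7E260A:G to α7G went up by 0.18 per doubling of coding length in the male pair and down by 0.29 in the female pair (slopes over the 7190 genes, which are not independent replicates). The median ratio of the shortest 719 genes was -0.21 for males and 0.42 for females, and that of the longest was 0.46 and -0.68. By total counts, the median over all tested genes was -0.03 in males and -0.32 in females, and it was -0.01 in both with TMM scaling, and lists are read relative to these medians. Across genes the male and female pair ratios had a correlation of 0.074, and of 0.34 once the dependence on coding length was removed. Each test is therefore given without and with an offset for coding length. Calls named below are from fits without a term for sex, unless stated. With sex as a block and the offset, 97 genes were called.

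**Figure D1:**
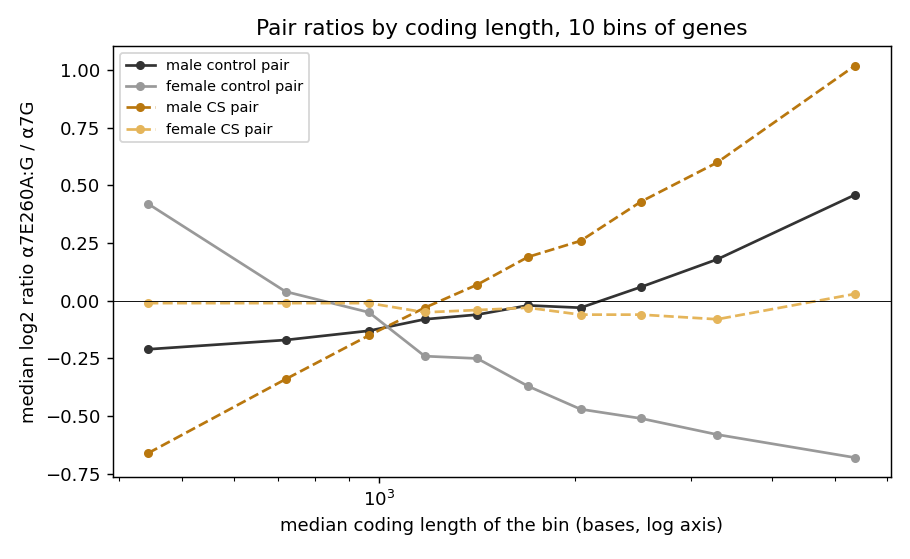
Median log2 ratio of α7E260A:G to α7G (RPM + 0.5) in 10 bins of tested genes by coding length in bases (log axis), with 1 line for each same-sex pair in controls and after CS. The male control line climbs from -0.21 to 0.46 and the female control line falls from 0.42 to -0.68, while the male CS line climbs from -0.66 to 1.02 and the female CS line stays between -0.01 and 0.03 at its ends.

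At baseline 1 gene passed the test for genotype and a further 23 passed when the coding-length offset was added. The gene was Trim12a, which was nearly silent in α7E260A:G. Beyond it, scavenger receptor and fatty acid-binding protein genes of macrophages were higher in α7E260A:G, and genes of alveolar and airway epithelium and of B cells were lower in both pairs. With Benjamini-Hochberg adjustment, the quasi-likelihood test of edgeR called 1 of 7190 genes (0.0139%), and 424 genes had an unadjusted p under 0.05. With the offset it called 24 (0.334%), 13 higher and 11 lower in α7E260A:G, and 908 had an unadjusted p under 0.05. Individual libraries decided much of this. Without the α7G male, α7G female, α7E260A:G male and α7E260A:G female library in turn, the calls were 1, 1, 7 and 3, and with the offset 1, 2, 182 and 31. In these fits the lone library of a group is assumed to vary like those of the other groups.

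By the size of the difference, 17 genes were more than 2-fold higher (0.236% of those tested) and 55 more than 2-fold lower (0.765%) in α7E260A:G in both control pairs, and 27 were more than 2-fold apart in opposite directions. These 72 genes were picked on the control values themselves, so their control ratios are a description with no test, and a 2 against 2 comparison of a single value cannot give an exact permutation p below 0.33. The balance of higher to lower genes depended on scaling: it was 17 to 55 by total counts, 25 to 31 with TMM scaling and 43 to 30 with TMM scaling and the length dependence removed. Without any size limit, 882 genes (12.3%) were higher and 2660 (37.0%) lower in both pairs, and 3647 were opposite, so a list with most of its members lower in both pairs has to be read against that share. The control values of the genotypes did not overlap in 2014 of the 7190 genes (28.0%), so a lack of overlap in a single gene is common. The genes at the edge of the limit were Ear6 (log2 ratios 1.01 male and 1.93 female) and Sftpc (-2.0 and -1.0) just inside, and Igf1 (1.0 and 1.98) and Aox3 (-1.0 and -2.0) just outside. Of the 24 genes called with the length offset, 16 were among the 72.

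**Figure D2:**
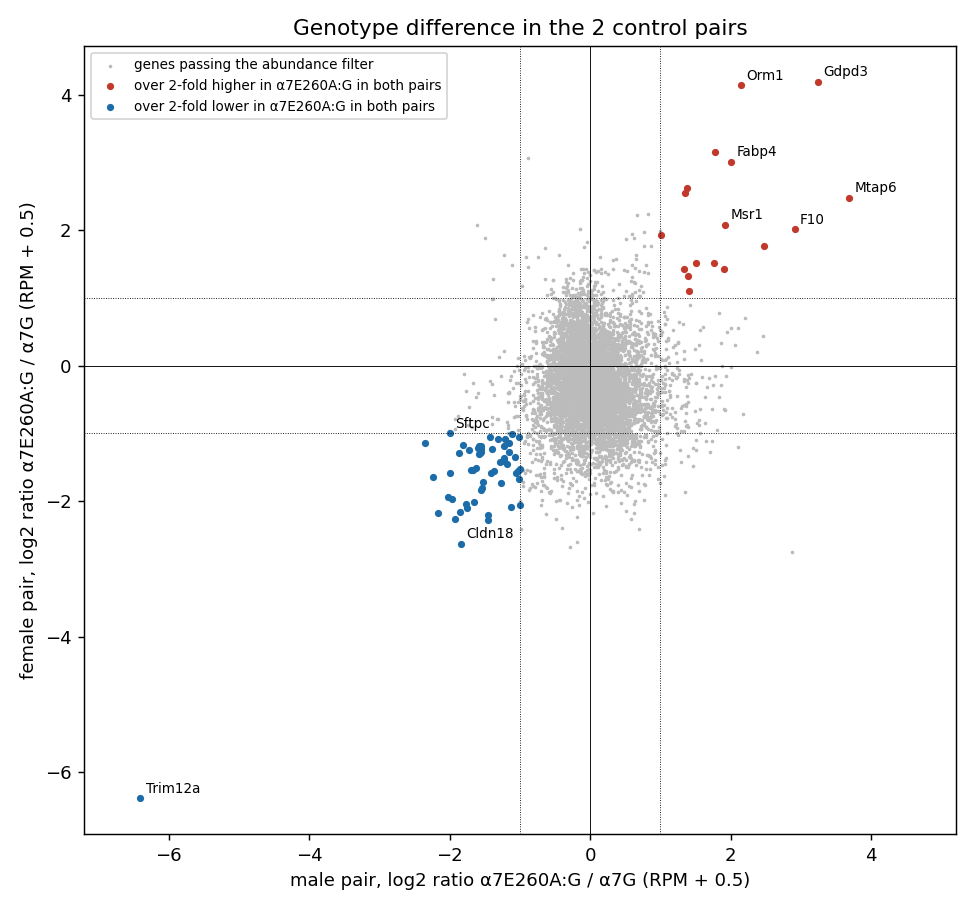
Log2 ratio of α7E260A:G to α7G in the male control pair (x) and the female control pair (y), 1 point per gene passing the filter, with 0.5 RPM added. Red points are the 17 genes over 2-fold higher and blue points the 55 over 2-fold lower in both pairs, dotted lines mark 2-fold, and Trim12a lies alone at -6.4 and -6.39.

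Trim12a belongs to a cluster of Trim genes on chromosome 7 that encode ring-finger proteins of the TRIM5/TRIM30 group, some of which restrict retroviruses. Its counts (chr7:111448408-111463980) were 433 in the α7G male, 460 in the α7G female, 1 in the α7E260A:G male and 1 in the α7E260A:G female. The α7G libraries were 427-fold higher in the male pair (95% counting interval 76.3 to 16900) and 537-fold higher in the female pair (96.0 to 21300). edgeR gave a log2 fold-change of -8.57 ± 0.47 (SE; Benjamini-Hochberg adjusted p = 0.00216), and -8.61 ± 0.42 with the offset (adjusted p = 8.09e-05). Trim12a is 41.2 Mb from Chrna7 on the same chromosome. Here and for every other gene, the point mutation and any other sequence difference between the lines cannot be told apart, since each genotype is 1 line and the strain is given only as more than 90percent C57BL/6.

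Its neighbours did not differ as a block. Trim5, which failed the filter, had 99 and 82 reads in the α7G male and female and 4 and 0 in the α7E260A:G male and female, which is 24.4-fold (9.25 to 91.4) higher in α7G in the male pair and at least 31.9-fold higher in the female pair. Trim30d had 232 and 195 reads against 5 and 7, or 45.8-fold (19.3 to 142) and 32.5-fold (15.5 to 82.0) higher in α7G. Trim34a had 255 and 295 against 45 and 18. In these 3 genes every α7G library was above every α7E260A:G library. Such a separation, in either direction, held for 28.0% of all tested genes, to which these 3 do not belong. Trim30b was lower to a lesser degree, at 329 and 125 against 70 and 79, and its α7G libraries differed more from each other. Genes in between did not follow, as Trim12c had 330 and 302 reads against 312 and 263 and Trim30a had 640 and 532 against 692 and 551, nor did Trim3, farther along the chromosome, with 525 and 389 against 503 and 332. Trim34b, singled out after its values were seen, went the other way at 5 and 2 reads against 16 and 17. Of the 12 listed Trim genes 5 passed the filter, and Trim12a was the only one of them called.

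Members of the cluster are close copies of each other, so the counting of reads that match more than 1 of them, which the sources used here do not describe, could move reads between them. Over 794 aligned coding bases Trim12a matched Trim12c at 96.2% (30 mismatches, longest identical run 100 bases) and Trim5 at 97.0% (24 mismatches, longest run 146 bases). Trim34a and Trim34b matched at 98.8% and Trim30d and Trim30a at 90.2%. Their levels are therefore uncertain wherever a copy is retained, most of all for Trim34a. The annotated span of Trim34a, on the plus strand, also runs across Trim12a, Trim5 and Trim34b, and the sources used here do not say whether counting used strand. The stretches of 60 coding bases that hold the most mismatches in each comparison are shown because only reads over such bases tell a gene from its copy. They are from the NCBIM37/mm9 reference, 5′ to 3′ on the coding strand, with mismatched bases in capitals and positions counted from the first coding base (119 to 178 for the first comparison, 93 to 152 for the second, 726 to 785 for the third).
Trim12a: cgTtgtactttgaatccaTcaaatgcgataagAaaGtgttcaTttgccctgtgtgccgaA
Trim12c: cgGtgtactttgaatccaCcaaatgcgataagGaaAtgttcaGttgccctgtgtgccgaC
Trim34a: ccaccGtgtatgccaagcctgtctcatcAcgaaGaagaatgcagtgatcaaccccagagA
Trim34b: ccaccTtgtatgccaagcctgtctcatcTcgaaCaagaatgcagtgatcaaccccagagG
Trim30d: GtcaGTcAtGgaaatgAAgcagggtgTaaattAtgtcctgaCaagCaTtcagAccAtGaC
Trim30a: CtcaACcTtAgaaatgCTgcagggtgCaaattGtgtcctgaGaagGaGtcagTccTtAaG

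**Figure D3:**
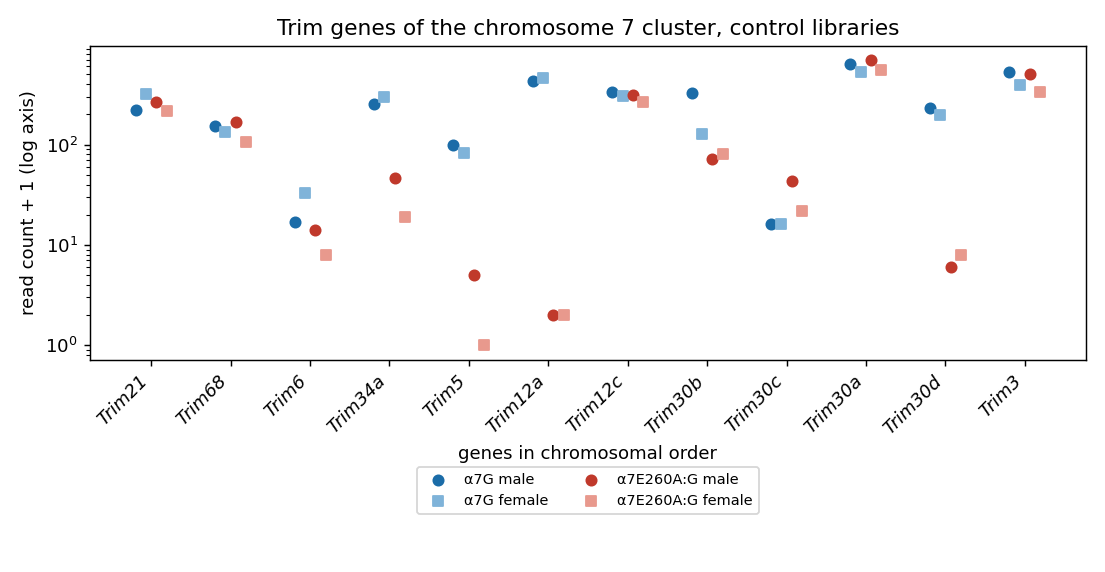
Read counts plus 1 (log axis) of 12 Trim genes of chromosome 7, in their order along the chromosome, in the 4 control libraries (blue α7G, red α7E260A:G, circles male, squares female). Red symbols fall to 1 read in both α7E260A:G libraries for Trim12a and to between 0 and 7 reads for Trim5 and Trim30d, and overlap the blue ones for Trim12c, Trim30a and Trim3.

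Among genes higher in α7E260A:G, Gdpd3, Mtap6 and F10 had the 3 smallest adjusted p-values with the offset. Gdpd3, of the glycerophosphodiester phosphodiesterase family (chr7:133909928-133919157, 63.7 Mb from Chrna7), was at 7.938 and 10.35 RPM in the α7G male and female and at 78.95 and 198.0 RPM in the α7E260A:G male and female. Its log2 fold-change was 4.0 ± 0.39 with the offset (edgeR, Benjamini-Hochberg adjusted p = 0.013) and 4.17 ± 0.57 without it (adjusted p = 0.254). Mtap6, which encodes a microtubule-stabilising protein (chr7:106415957-106485647, 36.2 Mb from Chrna7), was at 3.969 and 7.045 RPM against 57.27 and 41.67. It rose by 3.33 ± 0.35 on the log2 scale with the offset (edgeR, adjusted p = 0.0139) and missed the threshold without it (3.3 ± 0.33, adjusted p = 0.0731). F10, coagulation factor X (chr8:13037308-13056676), was at 60.74 and 81.45 RPM against 460.7 and 328.9, a log2 fold-change of 2.62 ± 0.28 with the offset (edgeR, adjusted p = 0.0139) and 2.61 ± 0.33 without (adjusted p = 0.215). In all 3 genes both α7E260A:G libraries were above both α7G libraries, with the female far above the male in Gdpd3. A lack of overlap, in either direction, held for 28.0% of all tested genes. Nearby genes, looked up after these values were seen, did not share the difference. Mapk3, the ERK1 kinase gene next to Gdpd3, had 2048 and 2599 reads against 2229 and 2838, Serpinh1, a collagen chaperone gene next to Mtap6, had 750 and 1178 against 1889 and 375, and F7, coagulation factor VII next to F10, had 1085 and 1299 against 946 and 1833.

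The other genes that passed only with the length offset encode metabolic enzymes, transporters, epithelial proteins and macrophage proteins. They are named because they passed, a choice made after their values were seen, and their adjusted p-values (edgeR, Benjamini-Hochberg) lay between 0.0197 and 0.0464. Of those lower in α7E260A:G, Pttg1 (securin, an inhibitor of chromatid separation) fell from 60.02 and 70.99 RPM to 16.08 and 28.69, a log2 fold-change of -1.59 ± 0.18. Gsr, glutathione reductase, fell from 229.7 and 186.2 to 86.26 and 61.59 (-1.33 ± 0.17). In these genes, as in Scd1 (stearoyl-CoA desaturase, 528 and 332.8 to 131.8 and 111.1), Apobec3 (a cytidine deaminase that restricts retroviruses, 192.4 and 160.8 to 63.85 and 70.08) and Atp1b1 (the sodium pump β1 subunit, 252.3 and 295.5 to 121.1 and 97.86), the groups did not overlap. A lack of overlap held for 28.0% of all tested genes. Agr3, of the protein disulfide isomerase family, fell from 28.27 and 61.7 to 8.651 and 14.89, Bcam, a laminin-binding surface protein, from 173.7 and 181.6 to 90.77 and 60.58, and 5330417C22Rik from 156.2 and 119.7 to 80.54 and 34.45. Of those higher, Qpct, glutaminyl cyclase, was at 10.82 and 14.41 RPM in α7G and 38.01 and 42.4 in α7E260A:G, and Igf1, insulin-like growth factor 1, at 15.28 and 13.88 against 30.95 and 56.29. In 4 genes the difference sat mainly in the male pair: Lrp1, an endocytic receptor (log2 ratios 2.06 male and 0.3 female), Emilin1, an elastic fibre-associated protein (1.55 and 0.31), Slc7a2, a cationic amino acid transporter (2.0 and 0.56), and Plekhm2, which links lysosomes to motors (1.11 and 0.38). Crip1, a LIM-domain protein, leaned the other way (0.67 and 2.23).

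Besides Trim12a, several genes had at most 3 reads in both libraries of 1 genotype and at least 30 in both of the other. Off chromosome 12 these were Rps13-ps1, a processed copy of the ribosomal protein gene Rps13 (chr8:89571619-89572074), with 0 and 1 reads in the α7G male and female and 206 and 813 in the α7E260A:G male and female, and Ifi202b, an interferon-inducible gene (chr1:175892700-175912975), with 0 and 0 against 237 and 151. Rps13-ps1 was at least 69.6-fold higher in the male pair and 696-fold (125 to 27500) higher in the female pair, and Ifi202b was at least 80.0-fold and 43.1-fold higher. Ifi203, a neighbour of Ifi202b in the same family, was not raised, at 1101 and 1169 against 715 and 834. Greb1, an estrogen-responsive gene on chromosome 12 singled out after its values were seen, had 0 and 4 reads against 209 and 49. Of the genes outside the test that were lower in α7E260A:G without being near 0 throughout, Gm1966, also on chromosome 7, had 777 and 530 reads against 68 and 34, and Rec8, a meiotic cohesin gene on chromosome 14, had 103 and 204 against 6 and 26. Rps13-ps1 and Gm1966 were left out of the test by name and Rec8 by its count, and in Gm1966 and Rec8 both α7G libraries were above both α7E260A:G libraries. That separation follows largely from picking genes with low ratios in both pairs. A lack of overlap held for 28.0% of all tested genes.

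Rps13-ps1 differs from Rps13 at only 2 of 456 coding bases, with an identical run of 410 bases, so its counts depend on how the aligner placed reads between the copies. The 60 bases that hold both mismatches, in capitals, are shown for that reason (reference NCBIM37/mm9, coding bases 370 to 429).
Rps13-ps1: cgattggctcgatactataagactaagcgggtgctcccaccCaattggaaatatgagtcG
Rps13: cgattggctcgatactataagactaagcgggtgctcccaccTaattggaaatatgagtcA

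Large differences were not spread evenly in number over chromosomes. Over 14140 genes that passed edgeR's own low-count filter, 47 were more than 4-fold apart in the same direction in both pairs, 23 higher and 24 lower. Chromosome 12 held 13 of its 567 genes and chromosome 7 held 9 of its 1090, while chromosome 8 held 3 of 762 and each remaining chromosome held 0 to 4. The chromosome 7 genes were Gdpd3 and Mtap6, higher in α7E260A:G, and Hbb-b2, Trim34a, Trim5, Trim12a, Trim30d, Gvin1 and Gm1966, lower. Those of chromosome 12 were mostly immunoglobulin heavy-chain segments, together with Greb1, Serpina9 and Serpina3m. This count was added after the values were seen, and no test of the distribution was made.

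Alveolar macrophage transcripts were higher in α7E260A:G. Of 24 listed genes 23 passed the filter, and of these 22 were higher in both pairs, 0 were lower in both and 1, Ctsk, was opposite, against 12.3% of all tested genes higher in both. Their median log2 ratios were 0.67 (male pair) and 1.10 (female pair), or 0.7 and 1.43 relative to all tested genes. The count of 22 and the 12.3% are by total counts. Over all tested genes the share was 22.1% with TMM scaling and 39.1% with the length dependence also removed. Msr1, Fabp4 and Fabp5 passed with the length offset and 0 passed without it, where 15 of the 23 had an unadjusted p under 0.05. Over all 7190 tested genes, 24 (0.334%) passed with the offset, and 424 had an unadjusted p under 0.05 without it. With sex as a block and the offset, 8 of the 23 were called, against 97 of all 7190. Msr1, a class A scavenger receptor (chr8:40667054-40728032), was at 18.64 and 17.93 RPM in the α7G male and female and at 71.89 and 77.39 in the α7E260A:G male and female, a log2 fold-change of 2.2 ± 0.27 (edgeR with the offset, adjusted p = 0.0254). Fabp4 and Fabp5, fatty acid-binding proteins, were at 15.15 and 29.25 against 62.75 and 239.2, and at 29.47 and 42.38 against 76.15 and 250.2 (2.45 ± 0.33, adjusted p = 0.0348, and 1.89 ± 0.24, adjusted p = 0.0282). Both α7E260A:G libraries were above both α7G libraries in each, and the female library was the highest. Groups did not overlap, in either direction, in 28.0% of all tested genes.

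Other macrophage transcripts leaned the same way without passing. Chi3l3, a chitinase-like protein, was at 6245 and 10830 RPM against 17750 and 30960, Marco, a scavenger receptor, at 162.5 and 312.2 against 611.8 and 836.6, and Lyz2, lysozyme, at 8336 and 10350 against 9600 and 20720. In Lyz2 the groups overlapped. Chi3l3 is 95.4% identical to Chi3l4 in coding sequence, so its counts are uncertain in the same way as those of the Trim genes. The list's summed level was 24600 and 32200 RPM in α7G and 43500 and 74400 in α7E260A:G. Cd68, a macrophage lysosomal membrane protein, was at 485.1 and 514.4 against 719.8 and 951.8, whereas Ptprc, which encodes the CD45 used for depletion, was at 1935 and 1387 against 1851 and 956.3 and did not pass (adjusted p = 0.988 by edgeR). CD45+ cells had thus not been removed entirely from any of the 4 libraries, and how many remained in each is not known. The authors report that they checked the purity of the depleted fractions before making libraries, but give no value for single libraries. In bulk RNA, more cells of a type and more RNA per cell cannot be told apart, here or for any list that follows. Mmp12, the macrophage elastase, was at 24.42 and 15.69 RPM against 64.21 and 98.96, more than 2-fold higher in both pairs, and Gpnmb, a macrophage transmembrane glycoprotein, at 180.4 and 260.7 against 480.3 and 561.

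Markers of other myeloid cells differed less evenly between the pairs. Of 11 monocyte and interstitial macrophage genes, 4 were higher and 1 lower in both pairs, with medians of 0.04 and 0.6 (0.06 and 0.93 relative to all tested genes), and 0 were called. The neutrophil list went in opposite directions in the pairs, with a median of -1.07 in the male and 0.99 in the female pair. S100a8, a neutrophil calcium-binding protein, was at 743 and 284.3 RPM in α7G and at 242.7 and 1193 in α7E260A:G. Only 3 dendritic markers passed the filter, with medians of 0.11 and -0.08.

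Surfactant and other ATII transcripts were lower in α7E260A:G. Of 16 listed ATII genes 14 passed the filter, and all of these were lower in both pairs, against 37.0% of tested genes, with medians of -1.70 in the male and -1.17 in the female pair, or -1.67 and -0.85 relative to all tested genes. Sftpc, surfactant protein C and the transcript that defines these cells, was at 12450 and 15290 RPM in the α7G male and female and at 3104 and 7636 in the α7E260A:G male and female. Sftpb was at 3055 and 2572 against 1025 and 1053, Sftpa1 at 3314 and 4369 against 1103 and 1876, and Sftpd at 1016 and 1369 against 306.2 and 577.7. In each, both α7E260A:G libraries were below both α7G libraries, with the male the lowest. Groups did not overlap, in either direction, in 28.0% of all tested genes. Lamp3, a lamellar body protein, was at 306.7 and 326.5 RPM against 78.1 and 82.78, with log2 ratios of -1.97 in both pairs, and Slc34a2, the phosphate transporter of ATII cells, at 1168 and 962.3 against 343.7 and 233.4. Abca3, the lipid transporter that loads surfactant, differed little in the male pair (369.6 against 297.4) and more in the female pair (279.5 against 128.3). None of the 14 genes passed the edgeR test of 4 groups with or without the offset. Without it 5 had an unadjusted p under 0.05, against 424 of all 7190 tested genes. With sex as a block and the offset 5 of the 14 were called, in a fit with only 2 libraries per group. That fit called 97 of all 7190 tested genes, among them 8 of the 23 alveolar macrophage genes. The list summed to 23600 and 27200 RPM in α7G and 7000 and 12800 in α7E260A:G.

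Type I alveolar (ATI) transcripts, from the flat cells of gas exchange, went the same way in 6 of 7 tested genes. Cldn18, the lung tight-junction claudin, was at 59.9 and 62.77 RPM against 16.33 and 9.686 and missed the threshold with the offset (edgeR, adjusted p = 0.051). Ager, which encodes the RAGE receptor, was at 261 and 285 against 74.2 and 126.3, and Aqp5, a water channel, at 55.81 and 55.08 against 19.01 and 16.36. Hopx, a homeodomain cofactor, differed less, at 42.82 and 59.14 against 32.17 and 49.43. The first 3 did not overlap between genotypes, which held for 28.0% of all tested genes, and Hopx did.

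Club cell transcripts were lower in 13 of 16 genes in both pairs and higher in 1. Bpifa1, an airway secretory protein, fell from 3191 and 4064 RPM to 676.1 and 1292, a log2 fold-change of -1.85 ± 0.27 with the offset (edgeR, Benjamini-Hochberg adjusted p = 0.0435), and was the only member called. Scgb1a1, the main club cell secretory protein, was at 37680 and 47300 against 21280 and 41910, so that the α7E260A:G female exceeded the α7G male and the groups overlapped. Selenbp1, a selenium-binding protein, was at 374.9 and 369.7 against 183.4 and 126.1. The ciliated list differed mainly in the female pair, with medians of -0.06 and -1.06 and 10 of 18 genes lower in both, and Foxj1, the regulator of ciliogenesis, was at 154.2 and 298 against 191.9 and 82.05.

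General epithelial transcripts were lower in both pairs in all 9 tested genes, with medians of -0.46 and -1.07 (-0.43 and -0.75 relative to all tested genes), and 0 passed. Epcam, the epithelial adhesion molecule against which the authors checked purity, was at 131.1 and 188.3 RPM against 88.82 and 82.33, and Cdh1, E-cadherin, at 278.6 and 292.7 against 263.9 and 74.65. Of 7 basal cell markers 0 passed the filter, and their summed level was 39.6 and 61.4 RPM against 18.8 and 26.4. The higher macrophage level and the lower epithelial levels were measured in the same libraries as shares of 1 total, and the part of cell composition in either was not tested.

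B cell transcripts were lower in both pairs in 9 of 9 tested genes, with medians of -1.37 in the male and -0.76 in the female pair (-1.35 and -0.43 relative to all tested genes). Cd79a, of the B cell receptor, was at 520.8 and 342.6 RPM in the α7G male and female and at 194.5 and 291.8 in the α7E260A:G male and female. Ms4a1, which encodes CD20, was at 271.3 and 219.9 against 102.2 and 129.9. The groups did not overlap in these genes, as in 28.0% of all tested genes, and 0 of the 9 passed with or without the offset. Genes of B cells off the list lay among the 55 lower ones, such as Fcer2a, the low-affinity IgE receptor (173.4 and 94.15 against 33.63 and 42.03), Bank1, a B cell scaffold protein (201.3 and 125.6 against 68.35 and 53.36), and Cr2, a complement receptor (136.3 and 81.66 against 58.12 and 30.43). The B cell list summed to 2650 and 1810 RPM against 1090 and 1240, in cells depleted of CD45+ leukocytes, and the part of that depletion in the result was not tested.

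Of 14 T cell markers, 9 were lower and 2 higher in both pairs, with medians of -0.34 and -0.11, which lay on opposite sides of those of all tested genes (-0.32 and 0.22 relative to them). Of 10 NK cell markers, 3 were lower and 1 higher, with medians of -0.12 and -0.03. None of these 24 genes passed with or without the offset. Cd4, of helper T cells, was one of the 2 that were higher in both, at 58.94 and 50.28 RPM against 60.68 and 55.92. Antibody transcripts did not follow the B cell markers. Igj, the joining chain of secreted antibodies, was at 584.8 and 647.5 RPM in α7G, 318.6 in the α7E260A:G male and 5424 in the α7E260A:G female, so 1 library stood far above the rest. Single immunoglobulin segments of chromosome 12 differed in both directions: Ighv8-11 had 0 and 0 reads against 45 and 1575, and Gm16857 had 3 and 2 against 181 and 1446, whereas Gm16717 had 794 and 994 against 13 and 151 and Gm16632 had 102 and 239 against 1 and 10. Variable segments are near-identical copies rearranged in single B cell clones, so these counts are given as they stand.

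**Figure D4:**
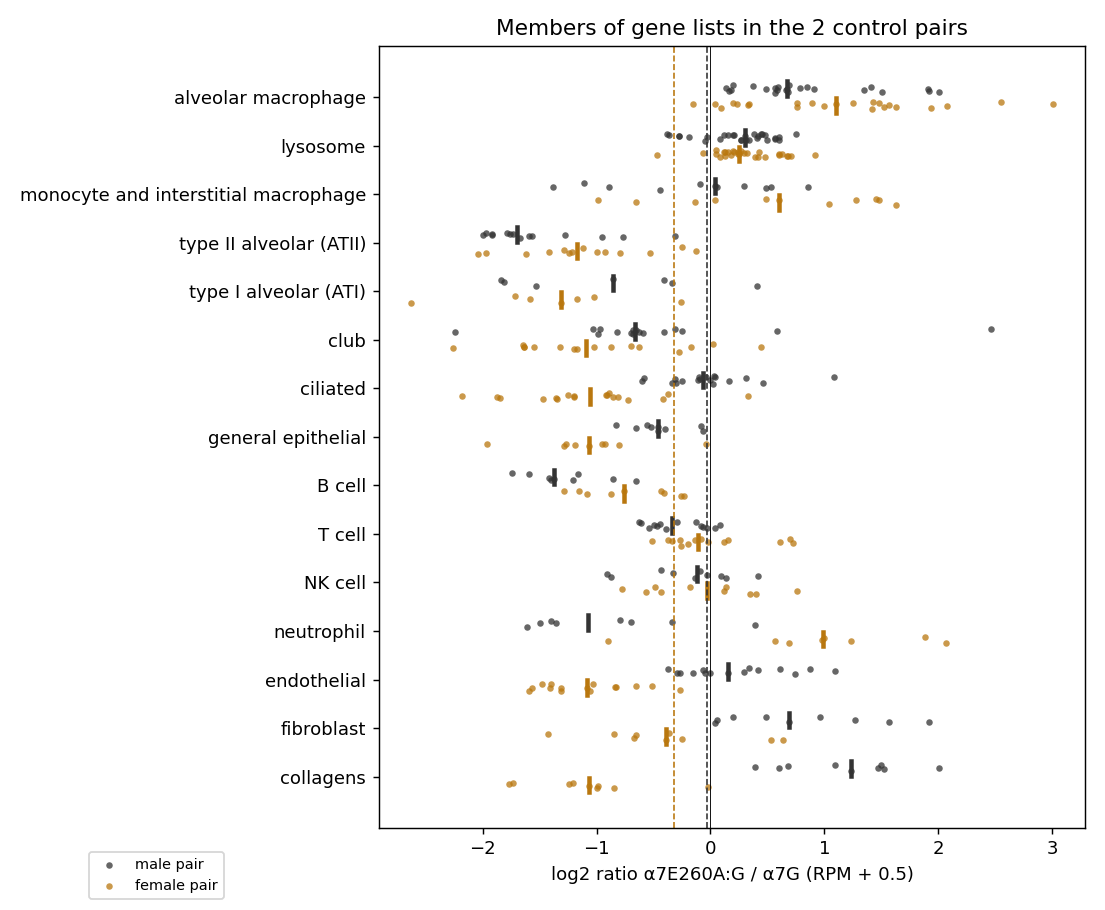
Log2 ratio of α7E260A:G to α7G (RPM + 0.5) for each tested gene of 15 lists, black for the male and gold for the female control pair, with thick bars for list medians and dashed lines for the medians of all tested genes (-0.03 and -0.32). Alveolar macrophage points lie above both dashed lines in nearly every gene, ATII and B cell points lie below 0, and collagen points lie above 0 in the male pair and below 0 in the female pair.

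Stromal and matrix genes differed in opposite directions in the male and the female pair, each of which is 1 library per genotype. All 9 tested collagen genes were higher in α7E260A:G in the male pair and lower in the female pair, with medians of 1.23 and -1.07, and 12 of 13 elastic fibre and proteoglycan genes were opposite in the pairs, with medians of 1.02 and -0.85. Removing the dependence on coding length brought these to 0.96 and -0.58 and to 0.9 and -0.23. Col1a1, the fibrillar collagen α1(I) chain, was at 170.6 and 175 RPM in the α7G male and female, 489.6 in the α7E260A:G male and 96.95 in the α7E260A:G female. Fn1, fibronectin, was at 641.3 and 381.1 against 1538 and 347. In both genes the α7E260A:G male was the highest library and the female the lowest, so the genotypes overlapped.

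Endothelial genes had medians of 0.15 and -1.08, with 6 of 15 lower and 0 higher in both pairs, and Pecam1, which encodes CD31, was at 221.8 and 212.4 RPM against 199.5 and 103.8. Fibroblast genes had medians of 0.69 and -0.39. Msln, the only mesothelial marker above the filter, was at 42.46 and 56.9 against 19.37 and 27.96. Smooth muscle markers did not pass the filter (0 of 8). Among 10 matrix metalloproteinases and inhibitors, 3 were higher and 3 lower in both pairs, and 0 were called.

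Signalling genes downstream of α7 lay close to the rest of the transcriptome. Of 21 genes of the JAK-STAT, NF-kB and CREB pathways, through which the receptor is known to act on inflammation, 12 were lower and 1 higher in both pairs, with medians of -0.07 and -0.41 (-0.04 and -0.08 relative to all tested genes), and 0 passed. Inflammatory cytokine genes had medians of 0.4 and 0.56, with 5 of 8 higher in both pairs. Among them Il18, a macrophage cytokine of the IL-1 family, was at 119 and 153.8 against 185.2 and 418.4. Its groups did not overlap, as in 28.0% of all tested genes. Il1b was at 560.7 and 100.7 against 215.4 and 199.9, with 1 α7G library above all others. Chemokine genes were split, with 2 higher and 2 lower of 9, and Ccl9, a CC chemokine, was at 92.61 and 70.99 against 143.5 and 264.2.

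Interferon-stimulated genes had medians of 0.05 and 0.06, and 5 of 16 were higher and 3 lower in both pairs. Ifi202b, with 0 reads in both α7G control libraries, was not a member of the list. Of 10 complement genes 4 were higher and 2 lower in both pairs. C3, the central complement component, was at 859.7 and 784.4 RPM in α7G, 1729 in the α7E260A:G male and 836 in the α7E260A:G female. Hc, complement C5, was lower at 759.3 and 671 against 186.5 and 174.6, with log2 ratios of -2.02 and -1.94. Its groups did not overlap, as in 28.0% of all tested genes, and C6 was at 50.04 and 41.85 against 17.91 and 8.68. Neither passed the edgeR test. The MHC class II list kept 2 genes after the classical H2 genes were left out by name, and both were opposite in the pairs.

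Lysosomal genes were higher in both pairs in 21 of 29 cases and lower in 1, with medians of 0.30 and 0.25, or 0.32 and 0.57 relative to all tested genes, and 0 were called. Ctsd, cathepsin D, was at 3439 and 4431 RPM against 5117 and 7048, and Psap, prosaposin, at 3442 and 2642 against 5121 and 4100. The single gene lower in both was Mcoln1, a lysosomal calcium channel (49.79 and 53.59 against 48.01 and 38.65). Of 11 genes of lipid handling in macrophages, 6 were higher and 1 lower in both, and Lrp1 was called with the offset. The gene lower in both was Cd36, a fatty acid and oxidised lipoprotein receptor, at 951.2 and 947.5 against 596.9 and 616.3.

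Redox genes as a list lay near the background. Of 20 NRF2 antioxidant genes, 10 were lower and 4 higher in both pairs, with medians of -0.24 and 0.01 relative to all tested genes and Gsr called, and Hmox1, haem oxygenase 1, was among those higher (120.9 and 102.6 RPM against 169.8 and 169.5). Of 12 aryl hydrocarbon receptor and cytochrome P450 genes, 7 were lower and 1 higher (relative medians -0.18 and -0.91), and Aldh3a1, an aldehyde dehydrogenase, was at 110.7 and 93.41 against 28.88 and 19.01. Among iron genes Ftl1, ferritin light chain, was at 390.3 and 383 against 545.9 and 1019, and Tfrc, the transferrin receptor, was at 84.19 and 81.77 against 35.82 and 31.34. Of 17 sterol and fatty acid synthesis genes, 9 were lower and 2 higher, with Scd1 called. Of 11 airway ion and fluid transport genes, 7 were lower and 1 higher, with Atp1b1 called, and Scnn1a, the epithelial sodium channel α subunit, was at 158 and 178.1 against 106.6 and 48.15.

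All 7 mitochondrially encoded genes that passed the filter were lower in both pairs, with medians of -0.65 and -0.70, and mt-Co1, of cytochrome oxidase, was at 10060 and 15020 RPM against 6845 and 9607. Nuclear genes of respiratory complex I did not share this: 29 of 33 were opposite in the pairs, with medians of -0.22 and 0.82 that became -0.1 and 0.32 once length was removed, and these are short genes such as Ndufa1 (55.45 and 75.58 against 51.05 and 182.1). Immediate early genes, which encode rapidly induced transcription factors, were lower in 11 of 18 cases and higher in 1, and Fos was at 820.7 and 245.4 against 413.2 and 224.2, with the α7G male the highest. Heat shock genes (7 of 20 higher, 1 lower), clock genes (1 of 11 higher, 2 lower) and cell cycle genes (2 of 17 higher, 7 lower) held no call. Hsph1, a heat shock chaperone, was at 230 and 428.4 against 635.9 and 152.8. Pttg1, called with the offset, was not on the cell cycle list.

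Of the 72 genes over 2-fold apart, 41 were on no list, 10 of them higher and 31 lower. Among the higher ones Orm1, an acute-phase plasma protein, was at 0.9622 and 0.6405 RPM in α7G and 5.97 and 19.55 in α7E260A:G, and St6galnac2, a sialyltransferase, at 12.27 and 13.02 against 70.67 and 45.5. Among the lower ones were more genes with known epithelial roles, such as Lgi3 (130.6 and 114.3 against 38.38 and 26.13), Muc1, a membrane mucin (263.4 and 304 against 109.3 and 90.55), Chia, acidic chitinase (120.9 and 123.3 against 51.66 and 53.64), and Reg3g, an antibacterial lectin (184.3 and 419.9 against 62.02 and 174.3). Chi3l1, a chitinase-like protein, was at 561.2 and 712.4 against 173.5 and 245. Both α7E260A:G libraries were below both α7G libraries in these genes, by the least in Reg3g, where the α7E260A:G female came close to the α7G male. This separation follows largely from picking genes over 2-fold lower in both pairs. Groups did not overlap in 28.0% of all tested genes. Hbb-b2, a β-globin gene, was at 247.5 and 145.8 against 54.59 and 31.71. It differs from Hbb-b1 at 1 of 444 coding bases, and all 5 red cell genes were lower in both pairs, so it is uncertain as a gene of its own.

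The same contrast in the 4 CS-exposed libraries, none of which is a control library, showed most of these differences again. Of the 17 genes over 2-fold higher in both control pairs, 17 were higher in both CS pairs, against 32.3% of all tested genes, and of the 55 lower ones 51 were lower in both CS pairs, against 26.1%. The abundance filter took the mean of all 8 libraries, so the CS libraries helped decide which genes were tested. Orm1 had 8 and 6 reads in the α7G controls, 49 and 214 in the α7E260A:G controls, and 424 and 1162 in the CS α7E260A:G libraries. Ear6 had 24 and 56, 52 and 264, and 596 and 735. For such genes the agreement after CS was partly built in. Over 2-fold in both CS pairs were 13 of the 17 and 15 of the 55. The median log2 ratios of the higher genes were 1.78 and 2.01 in controls and 1.95 and 2.37 after CS (male, female), and those of the lower genes were -1.55 and -1.52 in controls and -1.15 and -0.94 after CS. The 4 lower genes that did not repeat were Hbb-b2 (1.41 and -3.93 after CS), Alas2 of haem synthesis in red cells (4.06 and -2.04), Cr2 (0.01 and -0.95) and Tfrc (-0.5 and 0.23).

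Trim12a had 395 and 416 reads in the CS α7G male and female and 0 and 1 in the CS α7E260A:G male and female. Gdpd3 had log2 ratios of 4.27 and 4.42 after CS, Mtap6 of 3.12 and 2.71, F10 of 1.73 and 2.37, and Msr1 of 3.32 and 3.43. Rps13-ps1 had 0 and 0 reads against 352 and 575, Ifi202b had 6 and 1 against 44 and 73, and Trim30d had 103 and 125 against 4 and 0. Of the 24 genes called with the length offset in controls, 23 kept their direction in both CS pairs, the exception being Crip1 (-0.2 and 0.67). Over all tested genes, 32.3% were higher and 26.1% lower in both CS pairs. The CS libraries also entered the fit that called these 24. At the level of lists, the alveolar macrophage medians after CS were 1.08 and 1.07, the ATII medians -1.66 and -0.90, and the B cell medians -1.25 and -1.20.

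The test of whether the genotype difference itself changed with CS found no gene in edgeR's interaction test (0 of 7190 with and without the offset, 104 with an unadjusted p under 0.05), and DESeq2 called 3. The adjusted interaction p was 0.997 for Trim12a, Gdpd3, Mtap6, F10 and Pttg1. With 2 libraries per group this does not show that the differences were equal in size.

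**Figure D5:**
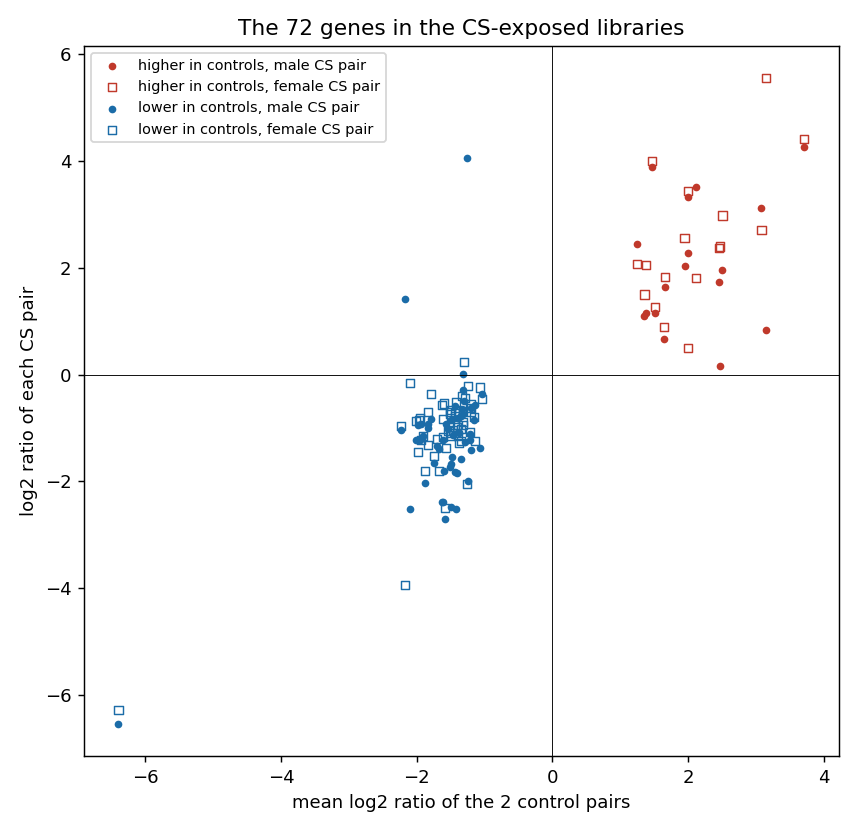
For the 72 genes over 2-fold apart in both control pairs, the mean log2 ratio of α7E260A:G to α7G in the 2 control pairs (x) against the log2 ratio in each CS pair (y), filled circles for the male and open squares for the female CS pair. Trim12a lies at the lower left in both CS pairs, the 17 higher genes all lie above 0, and Hbb-b2 and Alas2 lie above 0 in the male CS pair and below it in the female CS pair.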

How the data were processed

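Poly(A) RNA of CD45-depleted distal lung cells was made into strand-specific libraries (TruSeq) in 8 samples, 2 per group of genotype and exposure. Per the submitters' processing notes and the study's methods, the authors aligned reads with STAR to mm9 and counted them with HTSeq over GENCODE M1 (NCBIM37) coding sequences. The deposited values were raw counts per gene, not normalized. Tool versions, the strand setting and the treatment of reads that match several genes are not given in the sources used here. All 22756 genes matched the annotation by identifier.

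Totals were 8020726 to 10944100 counts per library. RPM was computed from all counts of a library. Genes with a mean of at least 200 counts over the 8 libraries were kept (7378), and 188 of these were left out by name (ribosomal proteins, immunoglobulins, H2 and numbered Gm genes), leaving 7190. The test was edgeR's quasi-likelihood test (edgeR 4.0.16, R 4.3.3) with TMM scaling and 1 model of 4 groups over the 8 libraries (4 residual degrees of freedom, common dispersion 0.0764), with Benjamini-Hochberg adjustment and a threshold of 0.05. SE is the fold-change divided by the root of the test's F. The length offset removed each library's lowess trend (span 0.667) on log2 coding length. Pair ratios added 0.5 RPM. Intervals are exact 95% intervals and, like the floor of 3 counts, cover counting error only. Scripts were tested on simulated data. The alternatives were DESeq2 1.42.0, other filters and scalings, sex as a block, the control libraries alone, and leaving out each library.

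The named genes were Chrna7, every called gene, the 12 highest and 12 lowest by the smaller pair ratio, genes with at most 3 counts in both libraries of 1 genotype and at least 30 in both of the other, the 4 most abundant members of each list, and, below the filter, the 5 highest and 5 lowest with a mean of at least 50 control counts. Genes called only with the length offset, members of the 72 and of lists beyond that rule, neighbours, Greb1, Trim34b, Ptprc and the chromosome counts were added after values were seen. The comparison and its 43 lists (759 entries, 749 found) were chosen with earlier results of these data known. Sequences were read from the NCBIM37/mm9 reference. Some genes that the naming rule or the lists hold are not reported here.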

Additional observations from a re-analysis of the deposited data

Results flagged for a closer look

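In 2 gene lists the genotype difference lay on opposite sides of the all-gene median in the control and the CS pairs, in both sexes, and these differences between exposures were not tested. The interferon-stimulated list was higher than all tested genes in α7E260A:G controls, with relative median log2 ratios of 0.08 in the male and 0.39 in the female pair (mean 0.23), and lower after CS, at -0.32 and -0.23. The dendritic list, with 3 tested members, was at 0.13 and 0.25 in controls (mean 0.19) and at -0.14 and -0.61 after CS. With the coding-length dependence removed, the male control value of the dendritic list became -0.04.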

How the results depend on the processing

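The count of genes called for genotype in controls was 1 with TMM or library-size scaling, edgeR's own filter, the 4 controls alone or sex as a block. It was 74 with DESeq2 (40 higher, 34 lower in α7E260A:G), 11 with no filter, 24 with the length offset, 2 with the offset in the 4 controls alone, 1 to 7 when each library was left out and 1 to 182 when that was combined with the offset (31 without the α7E260A:G female). Sex as a replicate block with the offset gave 97 calls (55 higher, 42 lower). They held all 24 of the offset alone, 8 alveolar macrophage genes and 5 ATII genes. With only 2 sex pairs, the male-minus-female differences of the genotypes had a correlation of 0.54 across genes (0.37 with length removed), which is a hint from the data and not a pairing of animals. Trim12a was called in each edgeR fit. DESeq2 and the length offset shared 16 genes, 21.6% of the first and 66.7% of the second. The interaction with CS gave 0 genes in each edgeR fit and 3 with DESeq2. Genes over 2-fold apart in both pairs numbered 72, against 330 with edgeR's own filter (84 higher, 246 lower), 280 at 1.5-fold (71 and 209), 56 with TMM scaling, 74 with length removed, 66 with 2 RPM added and 73 with TMM scaling and length removed, the last chosen after seeing the data, as were the offset combined with fewer libraries. No direction of a named gene's fold-change reversed. Of 37 lists, 22 had both relative medians on the same side, and 22 to 25 did under the alternatives, of which 2 each changed the direction of 2 lists. Depth limits genes near 3 counts per library, and 2 libraries per group with opposite length trends limit the rest.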
